A study of Mus musculus with 4 samples.

Results

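Glycolysis splits glucose into pyruvate, and the pyruvate is then either reduced to lactate and exported or carried into mitochondria and oxidised. A list of 37 genes covering this route was examined in neural stem/progenitor cells (NSCs) with and without the chromatin remodeler Chd5: glucose transporters, glycolytic enzymes, lactate dehydrogenases and lactate transporters, the pyruvate dehydrogenase complex with its kinases and a phosphatase, and pyruvate carboxylase. Members were the rows of the deposited expression table that carry one of these gene names, and 35 of the 37 genes had such a row among 18169 rows in all. Eno1 and Pgam2 had no row under those names and were not analysed here.

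The samples were primary NSC cultures, 2 from +/+ and 2 from Chd5-/- C57BL/6 mice, whose polyadenylated RNA was sequenced. Each culture was started from the tissue around the ventricles of a single newborn brain and grown in proliferation medium with epidermal growth factor and fibroblast growth factor 2. How the Chd5 allele was made is not given in the sources used here, and no other allele or agent is named for either group. The growth protocol gives postnatal day 1 for the brains, whereas the age entries read days 1 and 2 for +/+ and days 3 and 4 for Chd5-/- brains, so that by those entries age and genotype cannot be told apart. Values are in TPM, a transcript abundance scaled to transcript length and to a fixed total in each sample. TPM keeps no read counts, so the depth behind a value is unknown. Differences are given as Chd5-/- minus +/+ means of log2(TPM + 1), tested with limma over the 12576 rows that averaged 1 TPM or more, and p-values were adjusted across all of these by the Benjamini-Hochberg method.

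As background, the flux through glycolysis is set mainly at glucose entry, hexokinase, phosphofructokinase and pyruvate kinase, and most steps have several isoforms that differ by tissue. Neural progenitors and astrocytes are known for a strongly glycolytic metabolism with release of lactate, whereas neurons oxidise more of their pyruvate. Pyruvate dehydrogenase kinases switch the pyruvate dehydrogenase complex off and its phosphatases switch it on.

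Chd5 itself was at 0.39 and 0.37 TPM in +/+ NSCs against 0.06 and 0.04 TPM in Chd5-/- NSCs, under the minimum for testing. All 10 NSC markers had a row and at least 1 TPM in some sample, with Fabp7, Sox2, Vim and Slc1a3 abundant in every sample, but their summed TPM was 9802 and 8146 in the +/+ samples, 3885 in Chd5-/- replicate 1 and 6676 in Chd5-/- replicate 2. Astrocyte markers summed to between 1010 and 1892 TPM and oligodendrocyte lineage markers to between 504 and 928 TPM. Neuron markers summed to between 430 and 803 TPM, mostly Map2, and Rbfox3, which marks mature neurons, was at or near 0. Markers of microglia, red blood cells, skeletal muscle, and endothelial cells with pericytes summed to 2 TPM or less in each sample. Mesenchymal markers summed to 0.35 and 0.32 TPM in the +/+ samples, 24.7 TPM in Chd5-/- replicate 1 and 5.53 TPM in Chd5-/- replicate 2. The part of these differences in the results was not tested. In such bulk samples fewer cells of a type and less RNA per cell cannot be told apart.

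With limma, 0 of the 35 members passed an adjusted p-value of 0.05 in either direction, where 0.0318% of all rows passed as higher and 0.0239% as lower, and the smallest adjusted p-value among members was 0.120. At an unadjusted p-value under 0.05, 13 members were higher in Chd5-/- NSCs, or 37.1% of them against 21.9% of all rows, and 0 were lower against 2.27%. The 2 Chd5-/- samples were both above the 2 +/+ samples for 19 members, a share of 54.3% where the background was 46.3%, and both below for 2 members, a share of 5.71% where it was 13.0%. The median difference of the members was 0.83, against 0.34 for all rows. Of the 35 members, Pfkfb4, Eno3 and Slc16a3 reached the minimum mean of 1 TPM only through the Chd5-/- samples, and all 3 are among the 13.

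The median of the members was above that of all rows in Chd5-/- replicate 1 and close to it in Chd5-/- replicate 2. Set against the +/+ mean, the median member was at 1.16 on the log2 scale in Chd5-/- replicate 1 and at 0.34 in Chd5-/- replicate 2, while the median of all rows tested was 0.33 and 0.35 in the same samples. The +/+ samples gave medians of 0.018 and -0.018 for the members. Chd5-/- replicate 1 was the highest of the 4 samples for 22 members, or 62.9% against 36.7% of all rows, and Chd5-/- replicate 2 was the lowest for 10, or 28.6% against 20.5%. The first was at least 2-fold above Chd5-/- replicate 2 for 13 members, or 37.1% against 10.6% of all rows, and at least 2-fold below it for 2 members, Aldoc and Pcx, or 5.71% against 9.93%. The +/+ samples differed by 2-fold or more for 1 member, Pcx, against 9.32% of all rows.

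**Figure D1:**
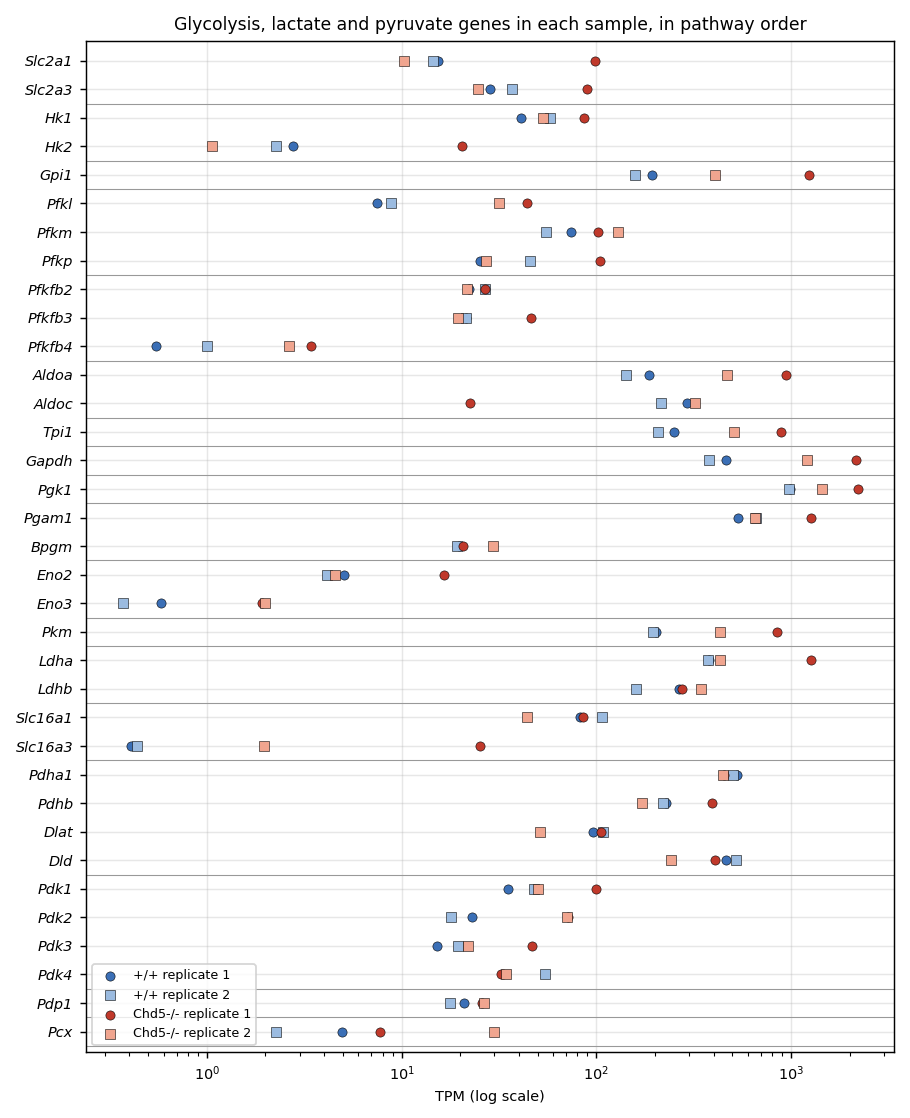
TPM of the 35 members in each sample on a log axis, in pathway order, with grey lines between steps. The +/+ samples (blue) lie within 2-fold of each other for every member but Pcx, Chd5-/- replicate 1 (dark red circles) is the highest of the 4 samples for 22 members, and Chd5-/- replicate 2 (light red squares) lies above both +/+ samples for Gpi1, Pfkl, Aldoa, Tpi1, Gapdh, Pgk1 and Pkm but not for Slc2a1, Slc2a3, Hk2 or Pfkp.

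Most members were either higher in both Chd5-/- samples or highest in Chd5-/- replicate 1 alone. The first group held 19 members with differences from 0.32 to 2.63 and a median of 1.19. The second group held 9 members, Slc2a1, Slc2a3, Hk1, Hk2, Pfkp, Pfkfb3, Pgam1, Eno2 and Pdhb, with differences from 0.21 to 1.07 and standard errors from 0.33 to 1.09. For 5 of these 9, namely Slc2a1, Slc2a3, Hk2, Pfkfb3 and Pdhb, the highest and the lowest of the 4 values were both from Chd5-/- samples. The other 7 were Pfkfb2, Aldoc, Slc16a1, Pdha1, Dlat, Dld and Pdk4. The groups describe the order of the values and were formed from them, so they carry no test. The share of all rows in the order of the second group, or of its 5, was not counted. Whether that order is particular to the members is therefore not known.

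**Figure D2:**
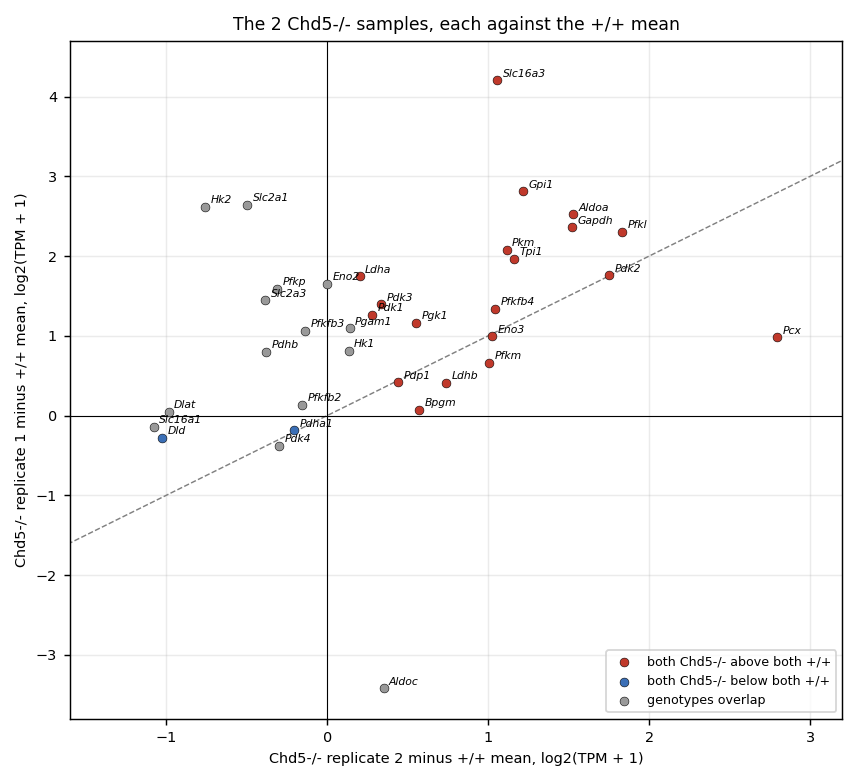
Each member's log2(TPM + 1) in Chd5-/- replicate 1 (vertical axis) and Chd5-/- replicate 2 (horizontal axis), as the difference from the +/+ mean, with equal differences on the dashed line. Hk2, Slc2a1 and Slc16a3 lie far above the line, Pdk2 lies on it, Aldoc lies far below it, and red points are the 19 members for which both Chd5-/- samples were above both +/+ samples.

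Glucose enters neural cells through facilitative transporters. Slc2a1 encodes GLUT1, the transporter of glia and the blood-brain barrier, and lies on chromosome 4 of GRCm38 (119108711 to 119137983). It was at 15.5 and 14.5 TPM in the +/+ samples, 98.6 TPM in Chd5-/- replicate 1 and 10.3 TPM in Chd5-/- replicate 2. Chd5-/- replicate 1 was 9.56-fold above its own replicate and 6.59-fold above the +/+ mean, and the other Chd5-/- sample was below both +/+ samples. The difference between genotypes was 1.07 (standard error 1.00), and without Chd5-/- replicate 1 it was -0.50. Slc2a3 encodes GLUT3, best known as the neuronal transporter (chromosome 6, 122727809 to 122801640). It was at 28.5 and 36.9 TPM in +/+ NSCs against 89.8 and 24.6 TPM in Chd5-/- NSCs, in the same order as Slc2a1.

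Hexokinases trap glucose in the cell by phosphorylating it. Hk1, the isoform of the brain, was at 41.0 and 57.8 TPM in +/+ NSCs against 86.1 and 53.4 TPM in Chd5-/- NSCs, so that the genotypes overlapped. Hk2, the inducible isoform of muscle and proliferating cells (chromosome 6, 82725025 to 82774454), was at 2.76 and 2.27 TPM in the +/+ samples, 20.5 TPM in Chd5-/- replicate 1 and 1.07 TPM in Chd5-/- replicate 2. The Chd5-/- samples bracketed the +/+ samples and differed from each other 19.2-fold, the widest ratio between them in that direction among the members. Hk2 made up 6.31% and 3.78% of hexokinase TPM in +/+ NSCs against 19.2% and 1.96% in Chd5-/- NSCs.

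Promoter sequences are shown for the 3 members with the highest ratio of Chd5-/- replicate 1 to replicate 2, which are Hk2, Slc16a3 and Slc2a1, and for Aldoc, which had the lowest. The windows are those of RefSeq on GRCm38.p6, from 250 bases before to 50 bases after the transcript start, and capitals mark ACGTG on either strand, which reads CACGT on the opposite strand. ACGTG is the core of the hypoxia response element and is also contained in CACGTG, an E-box that MYC and other factors bind. The Hk2 window is chr6:82774405-82774704 on the minus strand, that of Slc16a3 is chr11:120948817-120949116 on the plus strand, that of Slc2a1 is chr4:119108495-119108794 on the plus strand, and that of Aldoc, the upstream one of 2, is chr11:78322823-78323122 on the plus strand.
Hk2: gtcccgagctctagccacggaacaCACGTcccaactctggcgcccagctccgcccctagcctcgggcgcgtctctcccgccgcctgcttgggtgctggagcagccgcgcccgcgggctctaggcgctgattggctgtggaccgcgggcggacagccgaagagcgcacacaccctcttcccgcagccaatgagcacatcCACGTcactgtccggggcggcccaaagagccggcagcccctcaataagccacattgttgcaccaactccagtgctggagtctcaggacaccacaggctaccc
Slc16a3: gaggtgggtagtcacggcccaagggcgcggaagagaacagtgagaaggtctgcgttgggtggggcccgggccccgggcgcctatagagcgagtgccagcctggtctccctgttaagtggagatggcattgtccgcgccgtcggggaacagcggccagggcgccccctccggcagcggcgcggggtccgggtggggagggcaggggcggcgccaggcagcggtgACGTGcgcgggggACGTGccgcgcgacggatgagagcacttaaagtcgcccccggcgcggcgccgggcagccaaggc
Slc2a1: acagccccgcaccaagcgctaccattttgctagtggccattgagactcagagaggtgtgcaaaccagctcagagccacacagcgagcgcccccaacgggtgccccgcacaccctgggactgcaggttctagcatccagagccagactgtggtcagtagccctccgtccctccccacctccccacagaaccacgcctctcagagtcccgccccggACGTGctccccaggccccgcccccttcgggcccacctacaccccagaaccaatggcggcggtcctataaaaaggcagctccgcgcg
Aldoc: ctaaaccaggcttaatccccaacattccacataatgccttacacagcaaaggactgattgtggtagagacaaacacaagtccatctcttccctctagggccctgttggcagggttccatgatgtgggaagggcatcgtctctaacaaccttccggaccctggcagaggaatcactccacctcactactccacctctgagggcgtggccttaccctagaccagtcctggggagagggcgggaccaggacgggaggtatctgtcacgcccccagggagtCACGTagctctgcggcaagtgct
The core was found 2 times in the windows of Hk2 and Slc16a3 and 1 time in those of Slc2a1 and Aldoc, and CACGTG was found in none of the 4. Aldoc, low in the sample in which the other 3 were high, thus held the same letters. Promoter windows were given for 33 of the 35 members, and ACGTG was present in 23 of their 48 windows, or 47.9%, against 19.6% of 32851 windows of all genes. CACGTG was present in 7 of the 48 windows, or 14.6%, against 7.15%. The windows of all genes were not matched to those of the members in GC content or expression. A gene with several windows was counted several times. The part of these differences in the shares was not tested. A match of letters is a description and shows no binding.

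The isomerase step, the phosphofructokinase step and the aldolase step had more TPM in both Chd5-/- samples. Gpi1, which turns glucose-6-phosphate into fructose-6-phosphate (chromosome 7, 34201330 to 34230336), was at 194 and 159 TPM in +/+ NSCs against 1238 and 408 TPM in Chd5-/- NSCs. The fold over the +/+ mean was 7.03 in Chd5-/- replicate 1 and 2.32 in Chd5-/- replicate 2. The difference was 2.01 (standard error 0.54, adjusted p = 0.134 with limma), with both Chd5-/- samples above both +/+ samples. After the trend of each sample with transcript GC content and length was fitted over all rows and removed, the difference was 1.37.

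Phosphofructokinase commits the sugar to glycolysis, and its 3 isoforms did not behave alike. Pfkl, the liver isoform (chromosome 10, 77986947 to 78010083), was at 7.52 and 8.85 TPM in +/+ NSCs against 44.3 and 31.6 TPM in Chd5-/- NSCs. Both Chd5-/- samples were well above the +/+ samples and close to each other, and the difference was 2.07 (standard error 0.28, adjusted p = 0.120 with limma). Pfkl made up 7.03% and 8.07% of phosphofructokinase TPM in +/+ NSCs against 17.7% and 16.8% in Chd5-/- NSCs, so its share was apart between genotypes whatever the scaling between samples. With the trends removed the shares were 7.64%, 9.35%, 16.3% and 15.2%.

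Pfkm, the muscle isoform, was the most abundant isoform in +/+ NSCs, at 74.2 and 55.2 TPM, and was at 102 and 129 TPM in the Chd5-/- samples, a difference of 0.83 (standard error 0.26) that was 0.10 with the trends removed. Pfkp, the platelet isoform, was at 25.3 and 45.6 TPM in +/+ NSCs against 105 and 27.2 TPM in Chd5-/- NSCs, high in Chd5-/- replicate 1 alone. The enzymes that make and remove fructose-2,6-bisphosphate, an activator of phosphofructokinase, were mixed. Pfkfb2 lay between 21.8 and 27.0 TPM in all 4 samples. Pfkfb3 was at 21.5 and 21.6 TPM in +/+ NSCs against 46.2 and 19.5 TPM in Chd5-/- NSCs. Pfkfb4 was low, at 0.55 and 1.00 TPM in +/+ NSCs against 3.44 and 2.63 TPM in Chd5-/- NSCs.

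At the aldolase step the leading isoform was Aldoc in both +/+ samples and Aldoa in both Chd5-/- samples. Aldoa, the general isoform (chromosome 7, 126795234 to 126800751), was at 186 and 141 TPM in +/+ NSCs against 938 and 469 TPM in Chd5-/- NSCs, a difference of 2.03 (standard error 0.39, adjusted p = 0.120 with limma). Aldoc, the brain isoform and a marker of astrocytes and radial glia (chromosome 11, 78322968 to 78327781), was at 293 and 216 TPM in the +/+ samples, 22.6 TPM in Chd5-/- replicate 1 and 321 TPM in Chd5-/- replicate 2. The Chd5-/- values of Aldoc lay outside the +/+ range on opposite sides. Aldoa made up 38.8% and 39.6% of aldolase TPM in the +/+ samples, 97.7% in Chd5-/- replicate 1 and 59.4% in Chd5-/- replicate 2.

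Aldoc was not the only astroglial gene that was low in this library. Slc1a2, a glutamate transporter, was at 70.5 TPM there and between 327 and 361 TPM in the other 3 samples, and Gfap, the astrocyte filament, was at 0.71 TPM there and between 13.9 and 19.7 TPM in the others. Of the 8 astrocyte markers, which include Aldoc, these 3 and S100b were lowest there, while Sparcl1 was highest, at 1356 TPM against 23.6 to 249 TPM in the other 3 samples. These genes were named after their values were seen, and their part in the aldolase values was not tested.

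From triose phosphate to pyruvate, Tpi1, Gapdh, Pgk1 and Pkm were above both +/+ samples in both Chd5-/- samples. Tpi1, which interconverts the triose phosphates (chromosome 6, 124810586 to 124814296), was at 251 and 206 TPM in +/+ NSCs against 892 and 510 TPM in Chd5-/- NSCs, a difference of 1.56 (standard error 0.34). Gapdh, the NAD-reducing step (chromosome 6, 125161715 to 125166467), was at 464 and 378 TPM in +/+ NSCs against 2154 and 1204 TPM in Chd5-/- NSCs, a difference of 1.94 (standard error 0.36, adjusted p = 0.120 with limma). Chd5-/- replicate 1 was 5.12-fold and Chd5-/- replicate 2 was 2.86-fold above the +/+ mean of Gapdh, a gene often taken as a constant reference in expression assays.

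Pgk1, the first step that yields ATP (chromosome X, 106187100 to 106203699), was the most abundant member in +/+ NSCs. It was at 992 and 975 TPM in +/+ NSCs against 2198 and 1442 TPM in Chd5-/- NSCs, a difference of 0.86 (standard error 0.31). Gapdh and Pgk1 act in sequence, and the ratio of their TPM within a sample was 0.468 and 0.388 in +/+ NSCs against 0.980 and 0.835 in Chd5-/- NSCs. The genotypes did not overlap in this ratio, which does not depend on the scaling between samples. It can still depend on trends with GC content and length, as transcript GC content was 56.6% for Gapdh and 49.7% for Pgk1. With these trends removed, the difference was 1.04 for Gapdh and 0.50 for Pgk1.

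Pgam1, which moves the phosphate of 3-phosphoglycerate, was at 533 and 659 TPM in +/+ NSCs against 1268 and 653 TPM in Chd5-/- NSCs, high in Chd5-/- replicate 1 alone. Bpgm, which makes the haemoglobin regulator 2,3-bisphosphoglycerate in red cells, was at 19.8 and 19.3 TPM in +/+ NSCs against 20.6 and 29.5 TPM in Chd5-/- NSCs. Enolase makes phosphoenolpyruvate. Eno2, the neuronal enolase, was at 5.08 and 4.12 TPM in +/+ NSCs against 16.5 and 4.57 TPM in Chd5-/- NSCs. Eno3, the muscle enolase, was at 0.58 and 0.37 TPM in +/+ NSCs against 1.93 and 1.99 TPM in Chd5-/- NSCs. In place of Eno1, the general enolase, the table has 2 rows named Eno1b, a near-identical copy of Eno1. One was at 322 and 340 TPM in +/+ NSCs against 1167 and 546 TPM in Chd5-/- NSCs. The other lay between 6.70 and 45.7 TPM, and how reads were divided among Eno1 and its copy is not given in the sources used here.

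Pkm, the pyruvate kinase of most tissues (chromosome 9, 59656368 to 59679375), was at 203 and 196 TPM in +/+ NSCs against 845 and 433 TPM in Chd5-/- NSCs. Both Chd5-/- samples were more than 2-fold above the +/+ mean, by 4.24-fold and 2.17-fold, and the difference was 1.60 (standard error 0.37, adjusted p = 0.122 with limma). The table has a single row for the gene, so its spliced forms M1 and M2 were not separated. Summed over the 13 members that catalyse hexokinase to pyruvate kinase without enolase, TPM was 3265 and 3100 in the +/+ samples, 9913 in Chd5-/- replicate 1 and 5683 in Chd5-/- replicate 2, which is 3.11-fold and 1.79-fold the +/+ mean. Gapdh, Pgk1, Tpi1, Pgam1 and Ldha have processed pseudogenes that closely resemble them, and their values carry some doubt if reads were split between copies.

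**Figure D3:**
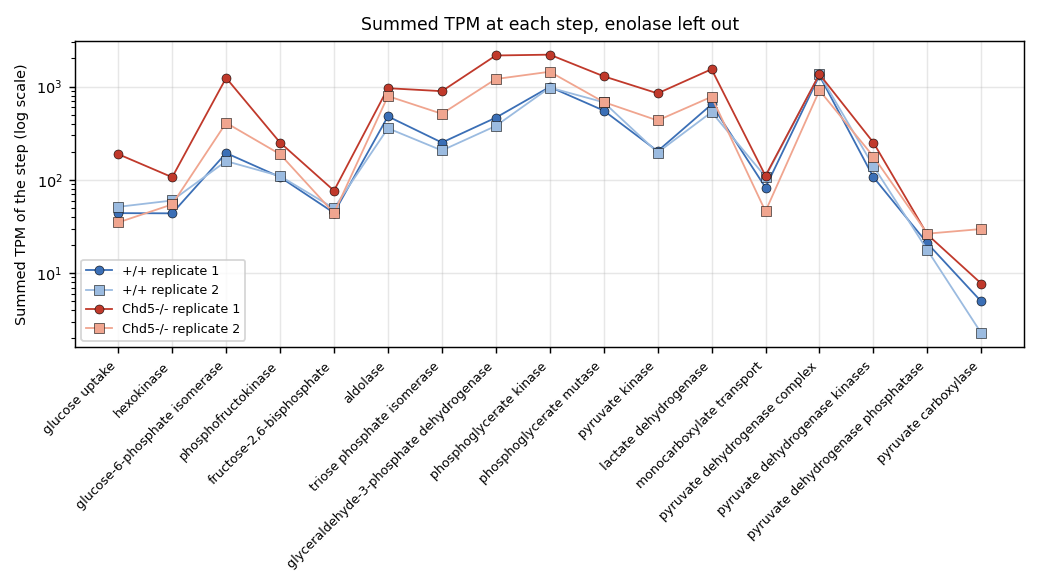
Summed TPM of the members of each step on a log axis, in pathway order, for each sample, with enolase left out because Eno1 had no row. Chd5-/- replicate 1 lies above the other samples from glucose uptake to lactate dehydrogenase, Chd5-/- replicate 2 lies between it and the +/+ samples at most steps from glucose-6-phosphate isomerase to pyruvate kinase, and it is the lowest sample at glucose uptake, fructose-2,6-bisphosphate, monocarboxylate transport and the pyruvate dehydrogenase complex.

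Lactate dehydrogenase is a tetramer of 2 kinds of subunit, of which that encoded by Ldha favours lactate production and that encoded by Ldhb favours its use. Ldha (chromosome 7, 46841475 to 46855627) was at 377 and 373 TPM in the +/+ samples, 1261 TPM in Chd5-/- replicate 1 and 431 TPM in Chd5-/- replicate 2. The first Chd5-/- sample was 3.36-fold and the second 1.15-fold the +/+ mean, and the difference was 0.97 (standard error 0.53) or, without Chd5-/- replicate 1, 0.20. Ldhb was at 266 and 160 TPM in +/+ NSCs against 274 and 345 TPM in Chd5-/- NSCs, a difference of 0.57 (standard error 0.32) that was -0.093 with the trends removed. The ratio of Ldha to Ldhb was 1.42 and 2.33 in the +/+ samples, 4.60 in Chd5-/- replicate 1 and 1.25 in Chd5-/- replicate 2, so that the Chd5-/- samples had the highest and the lowest ratio of the 4.

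Lactate leaves and enters cells through monocarboxylate transporters. Slc16a3 encodes MCT4, the exporter of strongly glycolytic cells (chromosome 11, 120948480 to 120960868). It was at 0.41 and 0.44 TPM in the +/+ samples, 25.3 TPM in Chd5-/- replicate 1 and 1.96 TPM in Chd5-/- replicate 2, all of the values but one very low. Its difference was 2.63 (standard error 1.02), and it was 1.05 without Chd5-/- replicate 1. With +/+ values this near 0 the difference depended on the pseudocount, and it was 3.78 with 0.1 and 1.42 with 5 in place of 1. Slc16a1, which encodes the general transporter MCT1, was at 82.2 and 107 TPM in +/+ NSCs against 85.1 and 44.0 TPM in Chd5-/- NSCs, low in Chd5-/- replicate 2. Slc16a3 made up 0.50% and 0.41% of the TPM of these 2 transporters in +/+ NSCs against 22.9% and 4.27% in Chd5-/- NSCs.

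**Figure D4:**
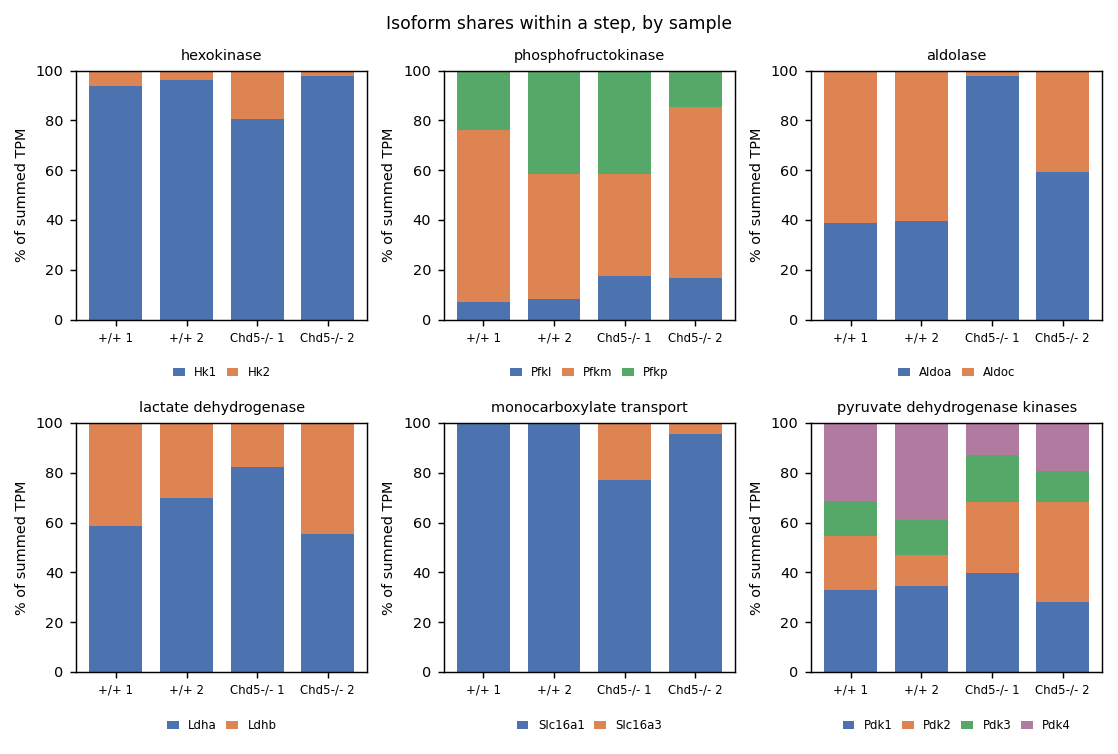
Share of each isoform in the summed TPM of its step, in percent, for 6 steps with 1 bar per sample. The Pfkl share is near 7% to 8% in +/+ and 17% to 18% in Chd5-/- samples, whereas the shares of Aldoa, Hk2, Ldha and Slc16a3 are highest in Chd5-/- replicate 1.

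The pyruvate dehydrogenase complex, which turns pyruvate into acetyl-CoA in mitochondria, did not follow the order seen in glycolysis. Pdha1, its catalytic alpha subunit (chromosome X, 160122209 to 160138413), was at 526 and 503 TPM in +/+ NSCs against 452 and 446 TPM in Chd5-/- NSCs, a difference of -0.20 (standard error 0.22). Dld, the shared dihydrolipoamide dehydrogenase subunit (chromosome 12, 31331277 to 31351453), was at 463 and 522 TPM in +/+ NSCs against 406 and 241 TPM in Chd5-/- NSCs, a difference of -0.65 (standard error 0.32, adjusted p = 0.276 with limma). Pdha1 and Dld were the 2 members for which both Chd5-/- samples were below both +/+ samples.

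Dlat, the acetyltransferase subunit, was at 96.6 and 109 TPM in +/+ NSCs against 106 and 51.2 TPM in Chd5-/- NSCs. Pdhb, the catalytic beta subunit, was at 229 and 221 TPM in +/+ NSCs against 391.92 and 173 TPM in Chd5-/- NSCs, which bracketed them. The 4 subunits summed to 1314 and 1354 TPM in the +/+ samples, 1356 TPM in Chd5-/- replicate 1 and 910 TPM in Chd5-/- replicate 2. Chd5-/- replicate 2 was thus the lowest for all 4 subunits, and Chd5-/- replicate 1 had a sum close to those of the +/+ samples.

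The kinases that inactivate the complex differed from each other. Pdk2, the widely expressed kinase (chromosome 11, 95026258 to 95041354), was at 23.1 and 18 TPM in +/+ NSCs against 71.5 and 71.2 TPM in Chd5-/- NSCs. The Chd5-/- samples were nearly equal and 3.48-fold and 3.46-fold the +/+ mean, and the difference was 1.76 (standard error 0.24, adjusted p = 0.120 with limma). Pdk2 had the smallest unadjusted p-value of the members with limma, and with the GC content and length trends removed its difference was 0.85. Leaving out either Chd5-/- sample gave differences of 1.75 and 1.76.

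Pdk1, a kinase known to be induced at low oxygen, was at 35.2 and 48.1 TPM in +/+ NSCs against 100 and 50.04 TPM in Chd5-/- NSCs, so that Chd5-/- replicate 2 barely exceeded the higher +/+ sample. Pdk3, a kinase of the same class, was at 15.2 and 19.5 TPM in +/+ NSCs against 47.0 and 22.02 TPM in Chd5-/- NSCs, in the same order. Pdk4, the kinase of fasting and fat use, was at 33.3 and 54.7 TPM in +/+ NSCs against 32.5 and 34.5 TPM in Chd5-/- NSCs, with overlap. Pdk4 was 31.2% and 39.0% of kinase TPM in +/+ NSCs against 12.9% and 19.4% in Chd5-/- NSCs, while Pdk2 was 21.6% and 12.8% against 28.5% and 40.0%. The genotypes did not overlap in the share of Pdk4 or of Pdk2, but with the trends removed the Pdk2 share of 23.0% in Chd5-/- replicate 1 was within the +/+ values of 25.3% and 17.8%.

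Pdp1, the phosphatase that reactivates the complex, was at 20.9 and 17.7 TPM in +/+ NSCs against 25.9 and 26.5 TPM in Chd5-/- NSCs, a difference of 0.43 (standard error 0.24). Pcx encodes pyruvate carboxylase, an enzyme of astrocytes in the brain that turns pyruvate into oxaloacetate (chromosome 19, 4510472 to 4621752). It was at 4.96 and 2.27 TPM in the +/+ samples, 7.72 TPM in Chd5-/- replicate 1 and 29.7 TPM in Chd5-/- replicate 2. Pcx was the member that most favoured Chd5-/- replicate 2 among those higher in both Chd5-/- samples, at 8.21-fold the +/+ mean there against 2.14-fold in Chd5-/- replicate 1.

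The 13 members with an unadjusted p-value under 0.05 had a median transcript GC content of 56.6%, against 51.9% for all 35 members and 49.6% for all rows tested with a known sequence. With the GC content and length trends removed, 6 members had an unadjusted p-value under 0.05 and were higher, against 4.86% of all rows, and they were Pfkl, Aldoa, Tpi1, Gapdh, Pdk2 and Pdp1. No member was lower, against 5.54%, and 0 passed an adjusted p-value of 0.05, where 0.0256% of all rows did. The differences of the 6 were then 1.21, 1.11, 0.89, 1.04, 0.85 and 0.63. Of the 19 members higher in both Chd5-/- samples, 8 kept less than 50% of their difference. These were Pfkm at 0.10, Eno3 at 0.25, Pfkfb4 at 0.47, Pkm at 0.67, Pdk2 at 0.85 and Ldha at 0.48, and Ldhb at -0.093 and Bpgm at -0.026, whose sign turned. GC content and length were removed together and their separate parts were not tested. After median-of-ratios scaling 8 members were higher at an unadjusted p-value under 0.05, or 22.9% against 11.1% of all rows. In that setting 2 members, Pdha1 and Dld, were lower, or 5.71% against 12% of all rows. This makes 10 in either direction, or 28.6% against 23.1%, while 0 passed the adjusted threshold against 0.0477%. After quantile normalization 8 members were higher, against 8.77%, and 1, Dld, was lower, against 8.12%.

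The count of members called differed with the Chd5-/- sample left out. Without Chd5-/- replicate 1, 12 members, or 34.3%, were higher at an unadjusted p-value under 0.05, against 27.8% of all rows, and 3, Slc16a1, Dlat and Dld, were lower, against 7.50%. Without Chd5-/- replicate 2, 24 members, or 68.6%, were higher, against 25.9%, and 1, Aldoc, was lower, against 5.60%. At an adjusted p-value under 0.05 with limma, 11 members, or 31.4%, passed without Chd5-/- replicate 1, against 9.92%, and 15, or 42.9%, without Chd5-/- replicate 2, against 8.64%. In both fits the lone Chd5-/- sample is assumed to vary as the +/+ samples do.

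**Figure D5:**
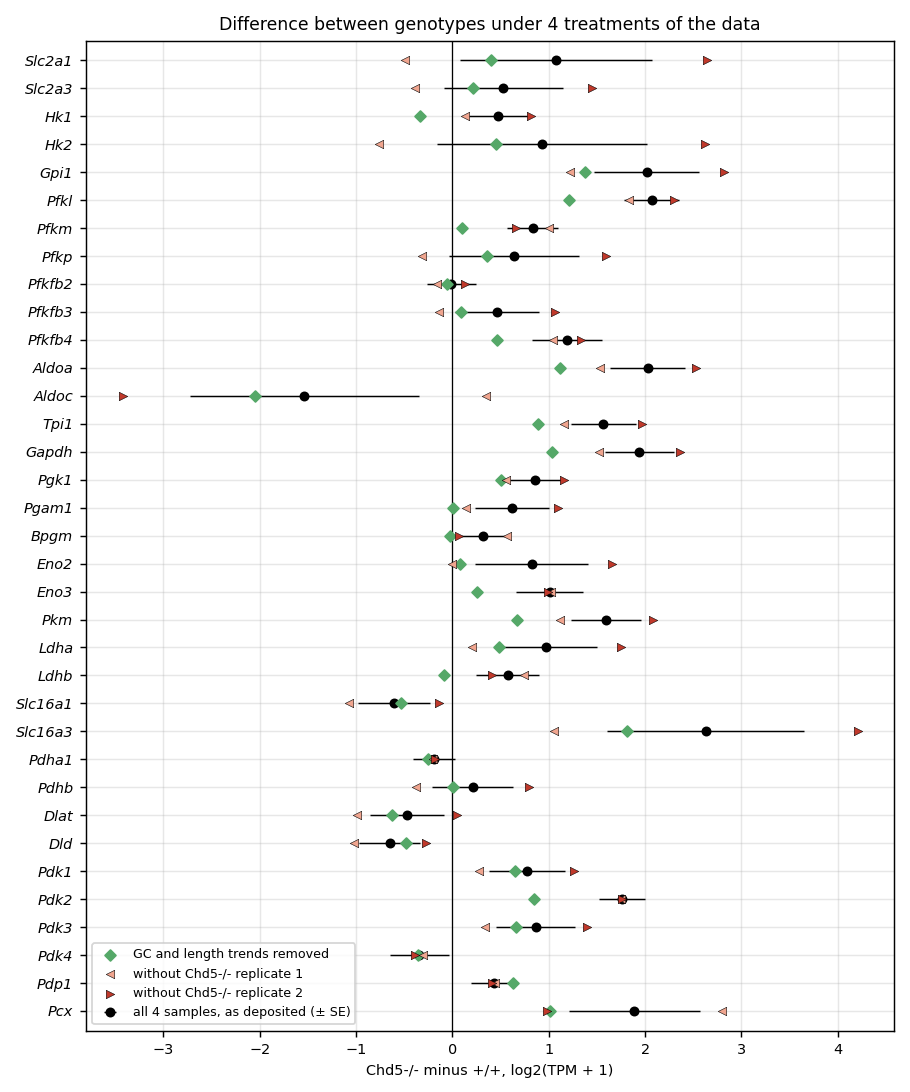
Difference of each member between genotypes in log2(TPM + 1) with its standard error (black), with the GC content and length trends removed (green diamonds), and without either Chd5-/- sample (triangles). Pdk2, Pfkl, Aldoa, Gapdh and Tpi1 stay above 0 in all 4 settings shown, whereas Slc2a1, Slc2a3, Hk2, Pfkp and Aldoc change sign without Chd5-/- replicate 1.

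Genes of connected pathways were taken from 7 lists, and 0 of their genes passed an adjusted p-value of 0.05 with limma. At an unadjusted p-value under 0.05, 21.9% of all rows were higher and 2.27% lower. With the GC content and length trends removed these shares were 4.86% and 5.54%, and the lists were not counted again in that setting. Genes named below as higher had a transcript GC content of 48.2% to 65.9%, and those named as lower 43.2% to 48.0%. Among 20 tested genes for other isoforms and partners of the same steps, 3 were higher, or 15% against 21.9%, and 1 was lower, or 5% against 2.27%. The one that was lower was Mpc1, a subunit of the carrier that brings pyruvate into mitochondria, at 628 and 626 TPM in +/+ NSCs against 344 and 344 TPM in Chd5-/- NSCs. This was a difference of -0.86 (standard error 0.22, adjusted p = 0.128 with limma), and the values within each genotype were nearly equal. Bsg, the chaperone of the lactate transporters, was at 245 and 276 TPM in +/+ NSCs against 1160 and 393 TPM in Chd5-/- NSCs, in the same order as Gpi1. Slc2a8, a minor glucose transporter, was at 1.62 and 1.26 TPM in +/+ NSCs against 5.05 and 5.78 TPM in Chd5-/- NSCs. Pdpr, a regulatory subunit of the pyruvate dehydrogenase phosphatase, was at 22.3 and 21.2 TPM against 36.6 and 33.6 TPM.

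Of the 11 pentose phosphate pathway genes tested, which make NADPH and ribose from glucose-6-phosphate, 4 were higher, or 36.4% against 21.9%, and 0 were lower, with a median difference of 0.61. Tkt, the transketolase that returns sugars to glycolysis, was at 31.9 and 18.7 TPM in +/+ NSCs against 130 and 77.3 TPM in Chd5-/- NSCs. G6pdx, the entry enzyme, was at 53.5 and 43.2 TPM against 92.3 and 68.9 TPM, and Pgls, the next enzyme, was at 2.30 and 1.5 TPM against 10.4 and 8.66 TPM. Of 24 citric acid cycle genes, 3 were higher, or 12.5% against 21.9%, and 1 was lower, or 4.17% against 2.27%, with a median of 0.090, below that of all rows. Idh2, at 57.1 and 51.1 TPM against 149 and 110 TPM, Idh3g, at 104 and 66.9 TPM against 199 and 227 TPM, and Mdh2, at 176 and 139 TPM against 335 and 235 TPM, are dehydrogenases and were the higher ones, and Sucla2, a subunit of succinyl-CoA synthetase, was the lower one, at 338 and 376 TPM against 255 and 193 TPM.

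Of 18 genes for gluconeogenesis and glycogen, 7 were higher, or 38.9% against 21.9%, and 1 was lower, or 5.56% against 2.27%. G6pc3, the glucose-6-phosphatase found outside the liver, was at 9.37 and 6.66 TPM in +/+ NSCs against 29.9 and 16.9 TPM in Chd5-/- NSCs. Pck2, the mitochondrial phosphoenolpyruvate carboxykinase, was at 5.63 and 3.69 TPM against 11.03 and 19.5 TPM. Phkg2, a catalytic subunit of phosphorylase kinase, was at 15.7 and 11.3 TPM against 30.1 and 29.3 TPM, and Phkb, a regulatory subunit of the same enzyme, was the lower gene, at 120 and 145 TPM against 82.3 and 88.8 TPM. Of 11 genes for serine and glycine synthesis, which branches from 3-phosphoglycerate, 3 were higher, or 27.3% against 21.9%, and 0 were lower. Phgdh, the first enzyme of that branch, was at 23.96 and 14.1 TPM against 44.7 and 80.2 TPM, highest in Chd5-/- replicate 2 as Pcx was. Mthfd1l, a mitochondrial folate enzyme, was at 9.85 and 9.76 TPM against 24.5 and 20.4 TPM, and Amt, of the glycine cleavage system, was at 43.3 and 41.9 TPM against 65.8 and 95.1 TPM.

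Of 9 genes for redox shuttles and carriers between cytosol and mitochondria, 4 were higher, or 44.4% against 21.9%, and 0 were lower. Gpd1, the cytosolic glycerol-3-phosphate dehydrogenase, was at 3.09 and 2.97 TPM in +/+ NSCs against 13.97 and 12.8 TPM in Chd5-/- NSCs. Slc25a1, the citrate carrier, was at 28.7 and 19.99 TPM against 68.5 and 47.5 TPM, and Slc25a11, the oxoglutarate carrier, was at 66.7 and 59.97 TPM against 106 and 87.0 TPM. Of 19 regulators of glycolytic genes, 4 were higher, or 21.1% against 21.9%, and 0 were lower. Txnip, which restrains glucose uptake and is itself induced by glucose metabolites, was at 124 and 120 TPM in +/+ NSCs against 287 and 335 TPM in Chd5-/- NSCs, a difference of 1.34 (standard error 0.22, adjusted p = 0.120 with limma). Egln2, a hydroxylase that marks HIF for degradation, was at 2.51 and 1.06 TPM against 5.09 and 7.29 TPM, and Trp53, the tumour suppressor p53, was at 21.98 and 15.8 TPM against 39.99 and 30.3 TPM. Hif1a, the oxygen-regulated activator of many glycolytic genes, was at 192 and 345 TPM against 238 and 288 TPM, and the +/+ values enclosed the Chd5-/- values. Egln3, a related hydroxylase and itself a HIF target, was at 19.4 and 23.0 TPM in the +/+ samples, 52.9 TPM in Chd5-/- replicate 1 and 11.8 TPM in Chd5-/- replicate 2.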

How the data were processed

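RNA-seq of 4 NSC samples, 2 +/+ and 2 Chd5-/-, was analysed from 1 table of TPM values deposited by the authors, with a row per gene name. Per the labels, the submitters' processing notes name Bowtie2 2.2.3, RSEM 1.2.20 and build mm10, without saying what each did. The annotation and the use of strand are not given in the sources used here. Columns were assigned to samples by name and the values were not rescaled. Differences were computed on log2(TPM + 1) and tested by the lmFit and eBayes functions of limma 3.58.1 (R 4.3.3; trend on, two-sided, genotype as the only term), over rows averaging 1 TPM or more. An exact permutation test of 2 against 2 samples cannot go below p = 0.333 and was not used for single values or shares. Each sample is 1 culture, and p-values measure only the spread between these samples.

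GC content and length came from the longest protein-coding transcript in GENCODE M21 (GRCm38), where 93.03% of the tested rows matched, and positions came from the same release. Trends were removed by loess (span 0.5) of each sample's difference from the row mean. Alternatives were pseudocounts of 0.1 and 5, other minimum TPM, median-of-ratios and quantile scaling, rescaling without the 20 most abundant rows, the replicate number as a block, other eBayes settings and leaving out each sample. All members were named, as were genes of connected lists with an unadjusted p-value under 0.05 and no overlap, up to 3 per list and direction. Hif1a and Egln3 and single cell markers were otherwise named after their values were seen. The members and lists were chosen with earlier results of these data known. Figures used matplotlib 3.10.9 and tables used pandas 2.3.3, under Python 3.11.15.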

Additional observations from a re-analysis of the deposited data

How the results depend on the processing

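Depth is unknown, so the counting error of low TPM values such as those of Slc16a3, Pfkfb4 and Eno3 cannot be given. No member passed an adjusted p-value of 0.05 with limma in any alternative that kept all 4 samples, where the smallest was 0.113. Members above without overlap were 57.1% against 57.5% of all rows without +/+ replicate 1, and 62.9% against 51.3% without +/+ replicate 2. They were 57.1% against 61.2% without Chd5-/- replicate 1, and 80% against 61.8% without Chd5-/- replicate 2. Members below were 17.1%, 5.71%, 28.6% and 11.4% in the same order, against 18%, 18.3%, 25.9% and 24.3% of all rows. Leaving out 1 sample gave 0 to 15 members past the adjusted threshold, 6 (without +/+ replicate 2, and 7 without +/+ replicate 1) to 24 (without Chd5-/- replicate 2) higher and 0 to 3 lower at an unadjusted p-value under 0.05, 20 to 28 above and 2 to 10 below without overlap, and medians of 0.34 to 1.16 for the members (0.34 without Chd5-/- replicate 1) and 0.26 to 0.41 for all rows.

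The number of members higher at an unadjusted p-value under 0.05, 13 as deposited, was 8 after median-of-ratios scaling or equalised quantiles and 6 with GC content and length trends removed, with or without the block. These are 22.9% of members against 11.1% and 8.77% of all rows, and 17.1% against 4.86% without the block and 3.43% with it. The number lower, 0 as deposited, was 2 after median-of-ratios scaling and 1 after quantile normalization or rescaling without the most abundant rows. These are 5.71% of members against 12% of all rows, and 2.86% against 8.12% and 6.51%. Members above without overlap numbered 11 with the trends removed, with or without the block (31.4% against 21.3% of all rows), and members below numbered 6 with median-of-ratios factors (17.1% against 32.0%), 4 when quantiles were equalised (11.4% against 30.0%) and 5 after rescaling (14.3% against 23.7%). The median of all rows, 0.34 as deposited, was 0.24 with a pseudocount of 5. It was 0.19 with no minimum, 0.19 with a minimum of 10 TPM and -0.033 with median-of-ratios factors. When quantiles were equalised it was -0.052, after rescaling 0.13, and with the trends removed, with or without the block, -0.011. These shifts bear on every direction given. The median of the members was 0.60, 0.83, 0.63, 0.42, 0.44, 0.60 and 0.36 in the same order. Why these values moved was not tested.

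The replicate numbers are shared between genotypes by name only, and the deviations of equally numbered samples correlated at -0.15 over all rows and -0.33 over the members. With the replicate number as a block, 10 members were higher at an unadjusted p-value under 0.05, against 16.8% of all rows, 0 were lower, against 1.42%, and 0 passed the adjusted threshold.

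Of 555 values for single members, 507 kept their direction and side of the threshold, 26 passed it with a sample left out, and 22, in 14 members, changed sign. Bpgm was at -0.077 with median-of-ratios factors, -0.027 when quantiles were equalised and -0.026 with trends removed. Pdhb was at -0.20 after median-of-ratios scaling and -0.026 after rescaling. With trends removed, with or without the block, Hk1 was at -0.33 and Ldhb at -0.093. With 1 sample left out the ranges were -0.50 to 2.64 for Slc2a1, -0.38 to 1.44 for Slc2a3, -0.76 to 2.62 for Hk2, -0.31 to 1.59 for Pfkp, -0.14 to 1.07 for Pfkfb3, -3.42 to 0.35 for Aldoc, -0.0024 to 1.65 for Eno2 and -0.38 to 0.80 for Pdhb, the sign turning without Chd5-/- replicate 1. They were -0.16 to 0.13 for Pfkfb2, -0.69 to 0.0070 for Pdk4 and -0.99 to 0.044 for Dlat. Of 26 differences in isoform share, 22 moved by less than the spread between replicates with the trends removed.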

Other observations

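Genes known to be induced at low oxygen were looked at after the members' values had been seen, as a list of 16 genes that are not members, with no test. Chd5-/- replicate 1 was at least 2-fold above Chd5-/- replicate 2 for 11 of the 16 and at least 2-fold below it for 0, where 10.6% and 9.93% of all rows were. It was the highest of the 4 samples for 13 of the 16, where it was for 36.7% of all rows. Ero1l, an oxidase of the endoplasmic reticulum, was at 189 and 322 TPM in the +/+ samples, 1864 TPM in Chd5-/- replicate 1 and 96.9 TPM in Chd5-/- replicate 2. Ndrg1, a stress-induced gene, was at 1.41 and 3.35 TPM in +/+ NSCs against 79.2 and 6.75 TPM in Chd5-/- NSCs. Vegfa, the angiogenic growth factor, was at 57.2 and 54.5 TPM against 210 and 60.5 TPM. Chd5-/- replicate 1 was the highest sample for each of these 3, as it was for Slc2a1 and Ldha. Ddit4, Mxi1 and Kdm3a were highest in Chd5-/- replicate 2.

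Some members had nearly equal values in the Chd5-/- samples. Pdk2 was at 71.5 and 71.2 TPM, Pdha1 at 452 and 446 TPM, Eno3 at 1.93 and 1.99 TPM and Pdp1 at 25.9 and 26.5 TPM. Pdha1, a subunit of the pyruvate dehydrogenase complex, differed by -0.20 (standard error 0.22) between genotypes. The share of all rows with Chd5-/- values this close was not counted. Outside the members, Mpc1 was at 344 TPM in both Chd5-/- samples and at 628 and 626 TPM in the +/+ samples. Mpc1 is a part of the pyruvate carrier, and Pdk2 inactivates the pyruvate dehydrogenase complex, whereas Pdp1 reactivates it. Of the other kinases, Pdk1 and Pdk3 were above both +/+ samples in both Chd5-/- samples, unequally, and Pdk4 overlapped. These genes were set side by side after their values were seen, and pyruvate oxidation was not tested.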
